A study of Mus musculus with 45 samples.

Results

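The 9 genes described here encode the enzymes and the main receptor of the brain endocannabinoid system and of its close relatives, the N-acylethanolamines. They are the diacylglycerol lipase genes Dagla and Daglb, the monoacylglycerol hydrolase genes Mgll, Abhd6 and Abhd12, the phospholipase D gene Napepld, the amidase genes Faah and Naaa, and the cannabinoid receptor gene Cnr1. They were chosen by symbol, with their levels in the 4 groups of the study known, from the 24421 genes counted, and all 9 had counts in every library.

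The samples are poly(A) RNA from C57BL/6J mice, taken from the medial prefrontal cortex in 4 groups, with no transgene or mutant allele named for any of them. Ethanol mice could drink a 15% (v/v) ethanol solution on alternate days over 72 days and were killed 24 h after their last day of drinking, while water mice had water for the same 72 days. From each mouse, 5% of the minced tissue suspension was taken as total homogenate. The rest was dissociated, cleared of myelin on 25% Percoll and passed over magnetic beads against ACSA2, a surface antigen of astrocytes carried by the protein ATP1B2. The 44 libraries used were isolated cells of 10 ethanol and 10 water mice and homogenates of 12 ethanol and 12 water mice, and 20 of the 24 mice gave both. The isolated cells of a further water mouse were not analysed here. Neither the age nor the sex of the mice is given in the sources used here.

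The endocannabinoid 2-arachidonoylglycerol is made from diacylglycerol by the lipases DAGLα and DAGLβ, travels from the postsynaptic neuron back to the presynaptic terminal and there activates the receptor CB1, the product of Cnr1, which restrains transmitter release. It is broken down mainly by monoacylglycerol lipase (Mgll) and to a lesser extent by ABHD6 and ABHD12. The N-acylethanolamines, among them anandamide and palmitoylethanolamide, are made in part by NAPE-PLD and hydrolysed by fatty acid amide hydrolase (Faah), which prefers anandamide, and by the lysosomal N-acylethanolamine acid amidase (Naaa), which prefers palmitoylethanolamide.

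Naaa and Daglb were the pair that stood higher in isolated cells than in homogenate in every mouse with both fractions, and over the 20 isolated libraries their group-centred levels ran against each other (r = -0.819, a description), so their upstream sequences are shown. The windows are the 250 bases before the annotated start in RefSeq (GRCm38.p6), at chr5:92278182-92278431 on the minus strand for Naaa and at chr5:143464243-143464492 on the plus strand for Daglb. Capitals mark GGGCGG, the GC box of Sp1-type factors, or GAGGAA, the core element of the myeloid factor PU.1, on either strand (CCGCCC and TTCCTC are their reverse complements).
Naaa: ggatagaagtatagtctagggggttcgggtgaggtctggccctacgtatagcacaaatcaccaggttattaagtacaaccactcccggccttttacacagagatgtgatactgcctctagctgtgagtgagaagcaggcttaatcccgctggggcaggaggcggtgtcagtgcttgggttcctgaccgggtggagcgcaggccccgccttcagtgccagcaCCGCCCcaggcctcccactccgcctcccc
Daglb: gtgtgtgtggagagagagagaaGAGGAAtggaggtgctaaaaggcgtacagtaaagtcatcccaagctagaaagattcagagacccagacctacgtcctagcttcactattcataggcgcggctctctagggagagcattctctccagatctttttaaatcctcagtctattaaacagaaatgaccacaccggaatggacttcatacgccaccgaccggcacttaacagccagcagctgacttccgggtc
The Naaa window holds 1 GGGCGG and no GAGGAA, and the Daglb window 1 GAGGAA and no GGGCGG. Of all 32851 promoter windows of this length, 32.7% hold GGGCGG and 23.3% hold GAGGAA, and neither of these windows holds TATAAA, present in 12.4%. These matches describe the letters in the windows and show no binding. RefSeq windows were matched for 7 of the 9 genes, all but Dagla and Abhd12.

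Total gene counts ranged from 1028493 to 3248804 in isolated libraries of ethanol mice, from 504492 to 2938854 in those of water mice, from 3673811 to 9109247 in homogenates of ethanol mice and from 3973666 to 7837038 in those of water mice. The 5 libraries under 1000000 counts were all isolated cells of water mice. Levels are given as CPM, counts scaled to a common library size by the TMM factors of all 44 libraries. In isolated cells the raw counts behind the lowest genes were small, from 6 to 55 for Faah, from 3 to 48 for Napepld and from 10 to 64 for Cnr1, so single values of these genes carry a large counting error. The isolated label was checked with marker lists. The 14 neuron markers all fell in isolated cells (median log2 fold change -4.53 in ethanol and -4.24 in water mice). Of the 14 astrocyte markers 12 rose in each treatment (median 0.84 and 1.05), and Slc1a2 (-0.42 ± 0.13) and Ppp1r3c (-0.49 ± 0.14) fell in ethanol mice. All 14 microglia (3.52 and 3.70), 12 oligodendrocyte (3.63 and 3.25), 9 mural (2.96 and 2.62) and 10 endothelial markers (1.36 and 1.37) rose too, with medians above that of the astrocyte list, as did the perivascular macrophage markers tested (5 of 5 and 6 of 6, median 3.90 and 3.58), so transcripts of those cells stood beside those of astrocytes in the isolated libraries. No marker gene of these lists was at 0 in all libraries of a group. One homogenate stood apart: the water homogenate of mouse 68 was the lowest of its group in 7 of the 9 genes (all but Naaa and Abhd6) and in the neuron list, and the ethanol values in homogenate are given with and without it.

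The receptor gene Cnr1 was the member with the widest gap between the fractions. It stood at 9.07 CPM in the lowest, 15.7 in the median and 28.7 in the highest isolated library of ethanol mice, against 205, 318 and 435 CPM in their homogenates. In water mice it stood at 13.7, 19.8 and 30.4 CPM in isolated cells, against 95.6, 268 and 358 CPM in homogenates. Every isolated library lay below every homogenate of the same treatment. The fitted log2 fold change of isolated cells over homogenate was -4.28 ± 0.17 (SE) in ethanol mice, a level 19.4-fold lower, and -3.66 ± 0.20 in water mice, 12.6-fold lower. The neuron list, given above, moved the same way by a like amount, and its part in the Cnr1 values was not tested. In bulk libraries of this kind, fewer cells of a type and less RNA per cell cannot be told apart.

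The diacylglycerol lipase genes lay on opposite sides. Dagla, the lipase gene of postsynaptic neurons in the textbook scheme, stood at 51.0, 66.9 and 88.6 CPM (lowest, median and highest library) in isolated cells of ethanol mice, against 158, 201 and 239 CPM in their homogenates. In water mice it stood at 44.7, 74.3 and 93.0 CPM in isolated cells, against 100.4, 181 and 263 CPM in homogenates. The groups did not overlap in either treatment, and the log2 fold changes were -1.54 ± 0.09 in ethanol mice and -1.28 ± 0.15 in water mice. Daglb, whose product is best known from microglia and macrophages, stood at 102, 123 and 162 CPM in isolated cells of ethanol mice, against 43.9, 50.5 and 55.1 CPM in their homogenates. In water mice Daglb stood at 96.1, 136 and 179 CPM in isolated cells, against 36.8, 48.4 and 56.1 CPM in homogenates. Here every isolated library lay above every homogenate, by 1.38 ± 0.07 in ethanol mice and 1.51 ± 0.10 in water mice on the log2 scale. Among the 9 genes, Daglb also varied least between homogenates, with a coefficient of variation of 7.38% in ethanol mice and 10.6% in water mice.

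The hydrolases of 2-arachidonoylglycerol differed less between the fractions. Mgll, the most abundant of the 9 genes, stood at 347, 536 and 607 CPM in isolated cells of ethanol mice, against 398, 499 and 593 CPM in their homogenates. In water mice Mgll stood at 388, 593 and 714 CPM in isolated cells, against 254, 463 and 499 CPM in homogenates. The groups overlapped in both treatments, and 4 of 10 isolated libraries of ethanol mice and 9 of 10 of water mice lay above all homogenates of their treatment, while 2 of the 10 of ethanol mice lay below all of them. Its log2 fold change was 0.07 ± 0.10 in ethanol mice (95% interval -0.13 to 0.27) and 0.47 ± 0.12 in water mice (0.22 to 0.72). Abhd12, a serine hydrolase gene whose loss causes a neurodegenerative disease in humans, averaged 241 ± 46.2 CPM (SD, n = 10) in isolated cells and 214 ± 19.2 CPM (SD, n = 12) in homogenates of ethanol mice. In water mice it averaged 269 ± 45.6 and 212 ± 26.6 CPM, and the log2 fold changes were 0.20 ± 0.09 in ethanol mice and 0.35 ± 0.10 in water mice. Abhd6, a hydrolase gene of the postsynaptic membrane, lay lower in isolated cells, with 30.4 ± 6.51 against 53.6 ± 6.47 CPM in ethanol mice (-0.80 ± 0.10) and 36.6 ± 6.72 against 50.9 ± 6.32 CPM in water mice (-0.43 ± 0.10).

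Of the N-acylethanolamine genes, Faah and Naaa lay far apart. Faah stood at 6.35, 11.6 and 14.6 CPM in isolated cells of ethanol mice, against 98.1, 120.6 and 143 CPM in their homogenates. In water mice Faah stood at 7.45, 15.3 and 38.4 CPM in isolated cells, against 59.8, 112 and 138 CPM in homogenates. No isolated library reached the lowest homogenate, and Faah was 10.1-fold lower in ethanol mice (log2 fold change -3.34 ± 0.11) and 6.97-fold lower in water mice (-2.80 ± 0.19). Naaa stood at 36.3, 68.7 and 94.6 CPM in isolated cells of ethanol mice, against 28.7, 36.0 and 56.0 CPM in their homogenates. In water mice Naaa stood at 52.4, 90.7 and 149 CPM in isolated cells, against 21.5, 35.8 and 56.4 CPM in homogenates. All 20 isolated libraries lay above the homogenate median of their treatment, and Naaa was 1.81-fold higher in ethanol mice (0.85 ± 0.14) and 2.43-fold higher in water mice (1.28 ± 0.15). The synthetic gene Napepld averaged 11.2 ± 3.19 CPM in isolated cells and 23.8 ± 4.17 CPM in homogenates of ethanol mice (-1.07 ± 0.14), and 11.97 ± 4.16 and 20.1 ± 6.00 CPM in water mice (-0.64 ± 0.20).

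**Figure D1:**
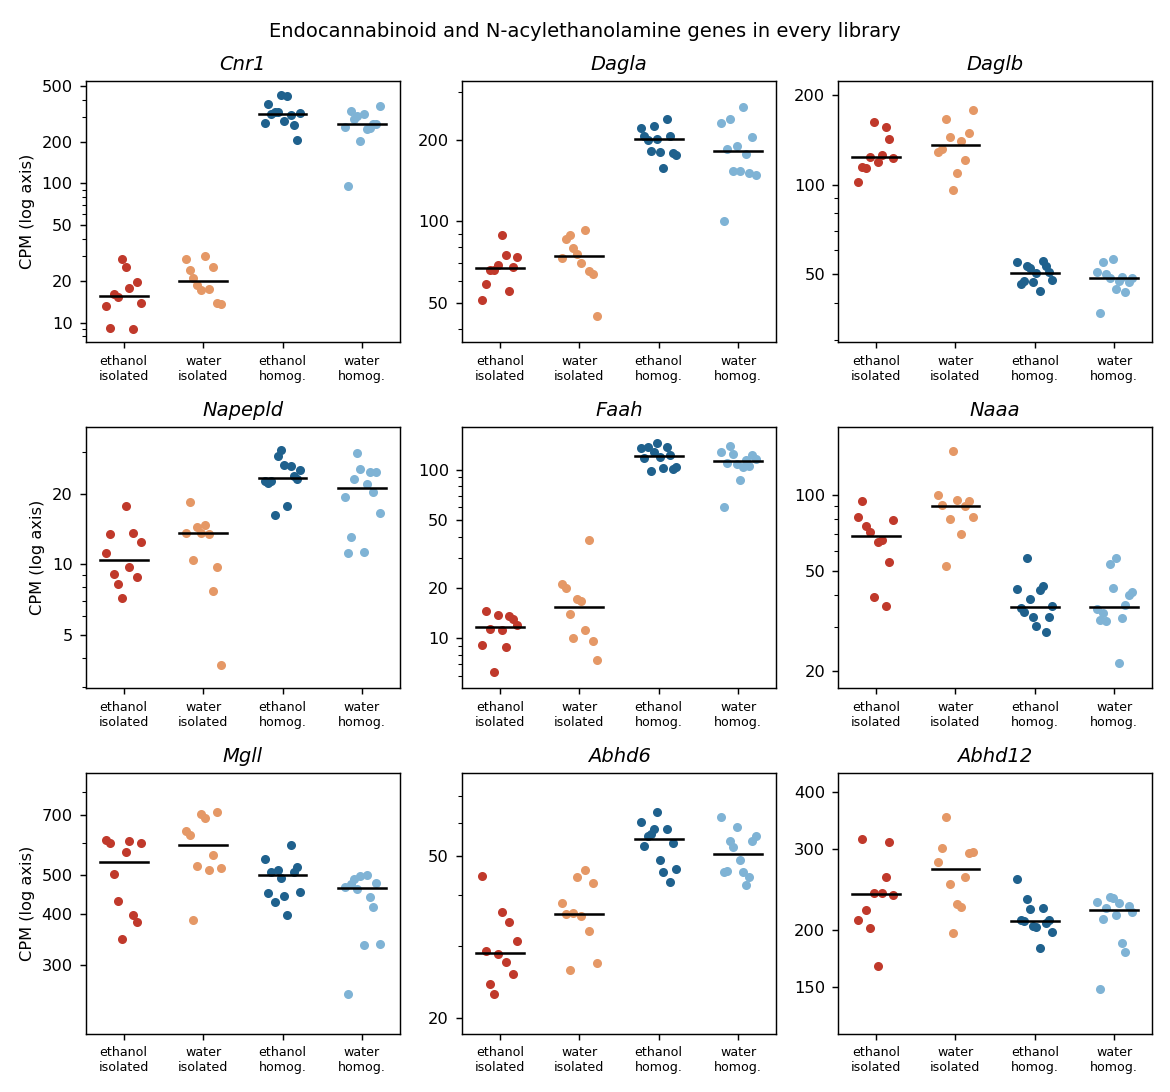
Levels of the 9 genes in CPM (log axes, a range of its own in each panel) in each of the 44 libraries: isolated cells of ethanol and water mice, then homogenates of ethanol and water mice; points are libraries and lines are medians. Cnr1, Faah and Dagla show no overlap between the fractions on the low side and Daglb none on the high side, while Mgll and Abhd12 overlap.

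At an FDR under 0.05 in edgeR's quasi-likelihood test, 3 of the 9 genes were higher and 5 lower in isolated cells of ethanol mice, where 81.7% of the 13489 genes tested passed (39.8% higher and 41.9% lower). In water mice 4 were higher and 5 lower, where 77.5% of 13434 genes passed (37.2% higher and 40.3% lower). Groups without overlap were seen for 4 of the 9 genes in each treatment, beside 47.2% of genes in ethanol mice and 38.0% in water mice. The genes were chosen with these levels known, so nothing is read from those counts, nor from the calls of single genes that follow. The median log2 fold change of the 9 genes was -0.80 in ethanol mice and -0.43 in water mice, beside -0.04 and -0.05 over all genes tested. Of these calls, that of Abhd12 in ethanol mice held in 3 of the 8 settings run, with log2 fold changes of 0.15 to 0.30. In water mice the calls of Abhd12 (0.19) and Napepld (-0.44) were lost without the shallow libraries and that of Abhd6 (-0.31) with all libraries thinned to one depth, where Napepld was too low for a test. Under upper-quartile scaling the median over all genes shifted by 0.10 in each comparison, so the fold changes hold relative to a shift of that size. Counts of Daglb and Mgll are uncertain, because their exons overlap Rac1 and Gm26588 on the opposite strand and the strand setting of the counting is not given in the sources used here.

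Paired by mouse, the same pattern was seen in single animals. In all 20 mice with both fractions Cnr1, Faah and Dagla were lower, and Naaa and Daglb higher, in the isolated cells than in the homogenate of that mouse. Abhd6 was lower in 10 of 10 ethanol mice and 9 of 10 water mice, and Napepld in 9 of 10 and 7 of 10. Mgll was higher in 6 of 10 ethanol mice and 9 of 10 water mice, and Abhd12 in 7 of 10 and 8 of 10. The within-mouse log2 difference of Daglb spanned 0.89 to 1.68 in ethanol mice and 1.10 to 1.87 in water mice, and that of Cnr1 spanned -5.26 to -3.27 and -4.66 to -1.73, where the last value is that of mouse 68 and the next is -3.01. For Naaa it averaged 0.76 ± 0.37 (SD, n = 10) in ethanol mice and 1.24 ± 0.45 (SD, n = 10) in water mice.

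**Figure D2:**
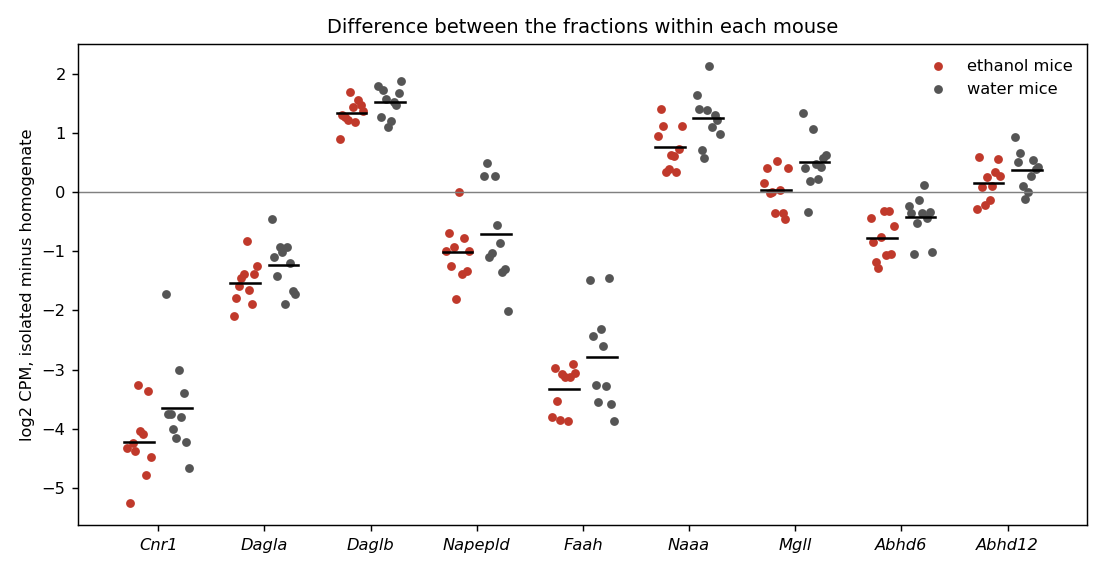
Log2 CPM of isolated cells minus homogenate of the same mouse for each gene, with 1 point per mouse, ethanol mice left of water mice and the mean as a line. The points of Daglb and Naaa lie above 0 and those of Cnr1, Faah and Dagla below 0 in all 20 mice.

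Levels can be compared between genes only per length, here CPM per kilobase of all annotated exons (GENCODE M21). The lengths of the transcripts present were not measured, and the order depends on the length taken. For Daglb that length was 9.567 kb, the longest of the 9. Before division Daglb averaged 50.1 and 48.04 CPM in homogenates of ethanol and water mice, above Naaa (37.8 and 38.1) and Napepld (23.8 and 20.1). Mgll and Abhd12 were the 2 highest in all 4 groups, with 99.2 ± 20.7 and 85.3 ± 16.4 CPM per kilobase in isolated cells of ethanol mice and 96.1 ± 10.9 and 75.6 ± 6.79 in their homogenates. In isolated cells Naaa came next, at 17.8 ± 4.98 in ethanol mice and 24.3 ± 6.69 in water mice, but Naaa and its neighbours in that order overlapped on the low side. In ethanol mice Daglb (13.4 ± 2.01), Abhd6 (12.9 ± 2.75) and Dagla (11.7 ± 1.87) followed with ranges that overlapped. Napepld, Cnr1 and Faah closed the order at 2.82 ± 0.81, 2.61 ± 0.99 and 1.45 ± 0.33, below every library of Dagla. In homogenates Cnr1 came next instead, at 49.8 ± 10.2 in ethanol mice and 41.1 ± 10.5 in water mice, where it overlapped Dagla and was the higher in 8 of 12 libraries, and Daglb last, at 5.24 ± 0.39 and 5.02 ± 0.53, overlapping Napepld (6.02 ± 1.05 and 5.08 ± 1.52).

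The make-up of each enzyme group followed from these levels. Of the summed per-kilobase level of the 2 N-acylethanolamine hydrolases, Naaa made up 91.8% ± 3.74 in isolated cells of ethanol mice and 91.9% ± 3.83 in those of water mice (SD, n = 10 each). In homogenates it made up 39.8% ± 6.18 and 42.3% ± 7.88 (SD, n = 12 each). Of the 2 diacylglycerol lipases, Daglb made up 53.5% ± 5.03 and 52.6% ± 7.54 in isolated cells of ethanol and water mice, against 13.3% ± 1.09 and 14.1% ± 2.42 in homogenates. The lowest isolated library was at 83.2% for Naaa and 43.3% for Daglb, and the highest homogenate at 57.7% and 18.04%. Among the 3 hydrolases of 2-arachidonoylglycerol, Mgll took about the same share in all groups, 50.04% ± 7.25 and 50.9% ± 6.77 in isolated cells of ethanol and water mice and 49.4% ± 2.35 and 46.4% ± 3.90 in homogenates. The Abhd6 share was 6.56% ± 1.37 and 6.85% ± 1.35 in isolated cells, against 11.7% ± 1.01 and 12.02% ± 1.71 in homogenates. Shares are sums of transcript levels and say nothing of enzyme activity.

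**Figure D3:**
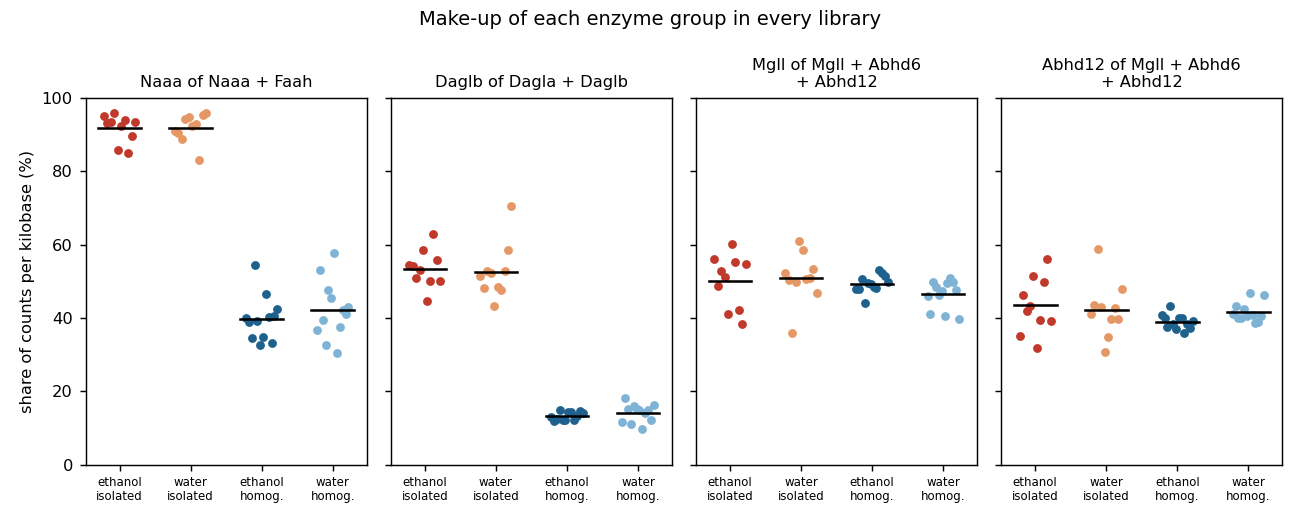
Share of one gene in the summed per-kilobase level of its enzyme group, in percent, for each library; points are libraries and lines are means, ethanol left of water in each fraction. The Naaa and Daglb shares separate the fractions without overlap, and those of Mgll and Abhd12 do not.

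The study asked what chronic ethanol does in isolated cells. All 9 genes had a log2 fold change of ethanol over water below 0 there, a direction held by 50.4% of the 11122 genes tested. None of those 11122 genes passed an FDR of 0.05 in edgeR (0.0% called), 600 had an unadjusted p under 0.05, and DESeq2 called 6 higher and 1 lower. No member was among the calls of any setting run. The median log2 fold change of the 9 genes was -0.22, beside -0.0015 over all genes tested.

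Naaa and Faah had the most negative values in isolated cells. For Naaa, the ethanol libraries ran from 36.3 to 94.6 CPM around a median of 68.7, and the water libraries from 52.4 to 149 CPM around 90.7. The groups overlapped, with 9 of 10 ethanol libraries below the water median and 2 below every water library, and the log2 fold change was -0.45 ± 0.17 (95% interval -0.79 to -0.11). The highest water library, at 149 CPM, was that of mouse 73. For Faah the log2 fold change was -0.44 ± 0.22 (-0.89 to 0.0081), with all 10 ethanol libraries below the water median, on median counts of only 17 per ethanol and 22.5 per water library. Cnr1 (-0.33 ± 0.20), Abhd6 (-0.31 ± 0.13) and Mgll (-0.22 ± 0.13) followed, with 8, 8 and 6 of 10 ethanol libraries below the water median, and the intervals of Cnr1 and Mgll included 0. Napepld stood at -0.19 ± 0.20, Dagla at -0.16 ± 0.11, Abhd12 at -0.14 ± 0.11 and Daglb at -0.08 ± 0.10, also with intervals that included 0. These intervals are not adjusted for the number of genes. The members were chosen with their levels known, so nothing is read from which intervals include 0. Without the 5 water libraries under 1000000 counts Naaa stood at -0.53, Napepld at -0.40, Faah at -0.35, Dagla at -0.26, Abhd12 at 0.02 and Daglb at 0.05.

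Marker lists moved beside these values. In the isolated cells of ethanol mice all 14 astrocyte markers lay below 0 (median -0.28), as did 12 of 12 neuron markers tested (-0.42) and 14 of 14 microglia markers (-0.16), while 8 of 9 mural (0.49), 5 of 6 perivascular macrophage (0.20), 10 of 10 endothelial (0.14) and 10 of 12 oligodendrocyte markers (0.06) lay above 0. The astrocyte list took 1.04% to 1.93% of the counts in isolated libraries of ethanol mice, against 1.11% to 3.10% in those of water mice. The neuron list took 0.0296% to 0.0976% in ethanol mice, against 0.0261% to 0.154% in water mice. None of the 84 markers tested passed the FDR in edgeR and 14 had an unadjusted p under 0.05, with the calls of DESeq2 over all genes counted above. The part of the lists in the values of the 9 genes was not tested.

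In homogenate the 9 genes pointed the other way. Of the 9, 8 had a log2 fold change above 0, a direction held by 47.7% of the 13576 genes tested, with a median of 0.11 beside -0.01 over all genes. None of the 13576 passed an FDR of 0.05 in edgeR (0.0% called), 467 had an unadjusted p under 0.05, and DESeq2 called none. Cnr1 stood at 0.27 ± 0.15, with 205 to 435 CPM around a median of 318 in ethanol mice and 95.6 to 358 CPM around 268 in water mice. The groups overlapped, but 10 of 12 ethanol libraries lay above the water median. Napepld stood at 0.24 ± 0.14, Mgll at 0.19 ± 0.09, Faah at 0.13 ± 0.10 and Dagla at 0.11 ± 0.11. Abhd6 (0.07 ± 0.07), Daglb (0.06 ± 0.06), Abhd12 (0.01 ± 0.07) and Naaa (-0.01 ± 0.12) were closest to 0. Without the water homogenate of mouse 68 the values shrank to 0.19 for Cnr1, 0.13 for Mgll, 0.07 for Faah and 0.05 for Dagla, with 0.18 for Napepld, 0.06 for Abhd6, 0.03 for Daglb, -0.03 for Abhd12 and -0.04 for Naaa. In homogenate all 12 oligodendrocyte markers (median -0.31) and all 8 oligodendrocyte precursor markers (-0.16) lay below 0, while 9 of 10 endothelial (0.11) and 8 of 9 mural markers (0.13) lay above 0, and their part was not tested.

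The difference between these effects, isolated cells minus homogenate in 1 model of all 4 groups, was below 0 for all 9 genes, as it was for 50.1% of the 14087 genes tested. None passed an FDR of 0.05 in edgeR (0.0% called), 834 genes had an unadjusted p under 0.05, and DESeq2 called 1 higher and 1 lower, neither a member. The values were -0.62 ± 0.27 for Cnr1, -0.55 ± 0.22 for Faah, -0.44 ± 0.21 for Naaa, -0.41 ± 0.16 for Mgll and -0.39 ± 0.14 for Abhd6. Napepld (-0.45 ± 0.25), Dagla (-0.28 ± 0.17), Abhd12 (-0.16 ± 0.13) and Daglb (-0.14 ± 0.12) had intervals that included 0. As the intervals are not adjusted for the number of genes and the members were chosen with these levels known, they serve as no test. Without the water homogenate of mouse 68 the difference was -0.54 for Cnr1, -0.48 for Faah and -0.35 for Mgll. Without the libraries under 1000000 counts it was -0.0037 for Abhd12 and -0.02 for Daglb, and between -0.39 and -0.65 for the other 7 genes. The same values are the gap between the fraction effects of ethanol and water mice, since these comparisons share their libraries.

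**Figure D4:**
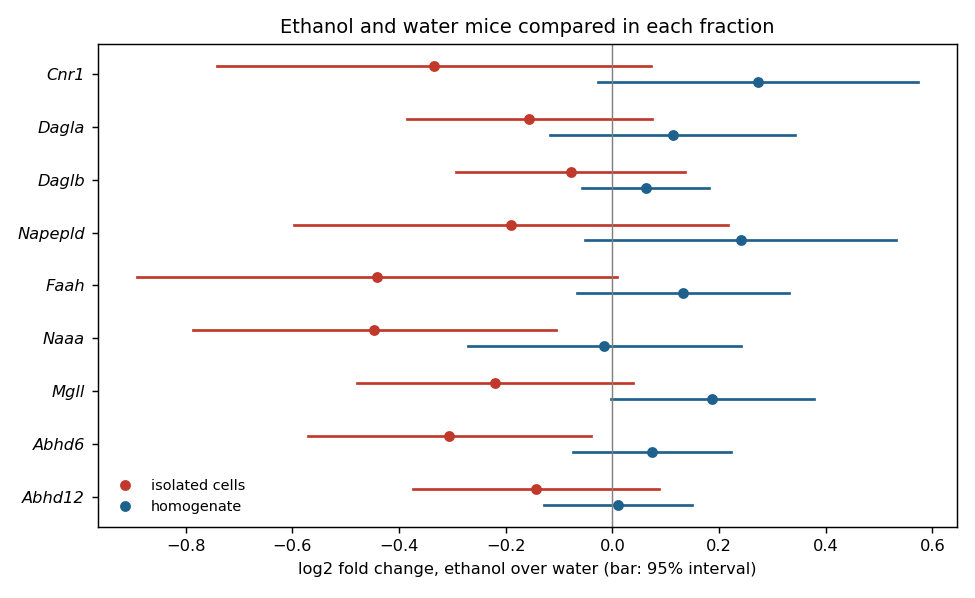
Log2 fold change of ethanol over water mice for each gene, in isolated cells (10 and 10 mice) and in homogenate (12 and 12 mice), with 95% intervals from the edgeR fits. All points of isolated cells lie left of 0 and 8 of the 9 homogenate points right of it, and most of these unadjusted intervals include 0.

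The spread between mice of one group was not used to choose the genes, so it was tested against the marker lists. Each gene was set against the mean log2 CPM of the neuron, astrocyte, microglia and oligodendrocyte lists within each group, which gave 144 relations, 8 of them with a Pearson FDR under 0.05 and 35 with an unadjusted p under 0.05. All p values are from two-sided permutation tests with 100000 resamples, with FDR values over the 144 relations.

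Daglb went with the microglia list in isolated cells. In ethanol mice r was 0.841 (n = 10, permutation p = 0.00236, FDR 0.0477) and rho 0.77 (permutation p = 0.0123, FDR 0.134). In water mice r was 0.914 (n = 10, permutation p = 0.00024, FDR 0.0346) and rho 0.927 (permutation p = 0.00044, FDR 0.0317). Without the 2 libraries farthest from the median of the list, r was 0.749 in ethanol mice and 0.855 in water mice. In homogenates r was 0.353 (n = 12, permutation p = 0.26, FDR 0.517) and 0.483 (n = 12, permutation p = 0.109, FDR 0.366). Daglb also ran against the astrocyte list in isolated cells, with r = -0.794 in ethanol mice (n = 10, permutation p = 0.00682, FDR 0.0701) and -0.813 in water mice (n = 10, permutation p = 0.00517, FDR 0.0656). With the oligodendrocyte list r was -0.773 in ethanol mice (n = 10, permutation p = 0.00748, FDR 0.0718) and -0.181 in water mice (n = 10, permutation p = 0.612). The 3 genes whose group-centred levels were most like those of Daglb over the 20 isolated libraries, among 9686 genes, were Ucp2 (r = 0.936), Tcirg1 (r = 0.93) and Csf1r (r = 0.928), the last of them the microglial growth factor receptor gene and a member of the microglia list.

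Naaa was set beside the astrocyte list in the same way. There r in isolated cells was 0.788 in ethanol mice (n = 10, permutation p = 0.0101, FDR 0.0747; rho 0.345, permutation p = 0.33) and 0.89 in water mice (n = 10, permutation p = 0.00448, FDR 0.0656; rho 0.758, permutation p = 0.0146). In homogenates it was 0.648 in ethanol mice (n = 12, permutation p = 0.0218, FDR 0.127; rho 0.706, permutation p = 0.0137) and 0.815 in water mice (n = 12, permutation p = 0.00127, FDR 0.0455; rho 0.559, permutation p = 0.0625). The sign was the same in all 4 groups and 1 of the 4 passed the FDR, with r = 0.811 there without the water homogenate of mouse 68. Without the 2 farthest libraries r was 0.582, 0.352, 0.418 and 0.76 in that order of groups, so the relation in isolated cells of water mice rests on those libraries. With the microglia list Naaa had r = -0.888 in isolated cells of water mice (n = 10, permutation p = 0.00259, FDR 0.0477; rho -0.794, permutation p = 0.00928), which also rests on 2 libraries (r = -0.491 without them). The astrocyte and microglia lists themselves ran against each other in isolated libraries (r = -0.913 in ethanol and -0.915 in water mice, n = 10 each), and as shares of one total they are not independent. With the neuron list Naaa had r = -0.766 in isolated cells of ethanol mice (n = 10, permutation p = 0.00897, FDR 0.0747; rho -0.758, permutation p = 0.0149). Without the 2 farthest libraries that r was -0.877. It was -0.362 in isolated cells of water mice, and 0.438 and -0.15 in homogenates of ethanol and water mice. The genes most like Naaa in isolated libraries were Pygb (r = 0.921), the brain glycogen phosphorylase gene, Baalc (r = 0.917) and Prdx6 (r = 0.917), a peroxiredoxin gene.

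**Figure D5:**
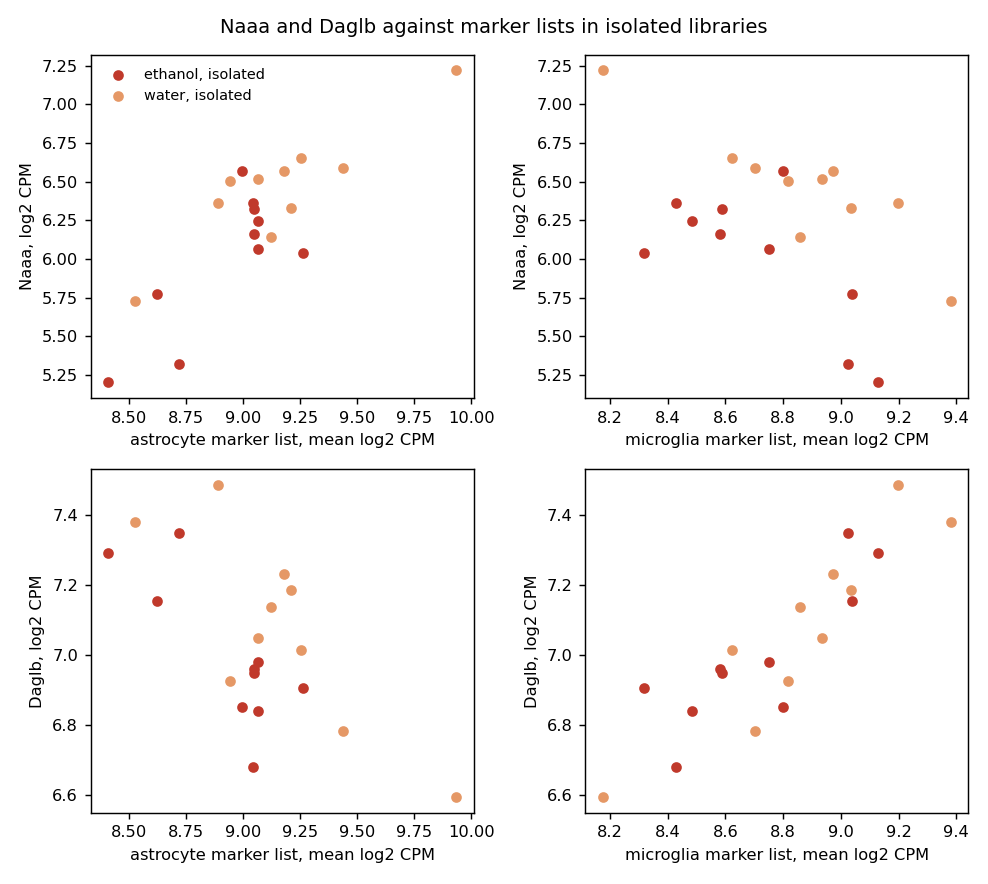
Log2 CPM of Naaa (top) and Daglb (bottom) against the mean log2 CPM of the astrocyte (left) and microglia (right) marker lists in the isolated libraries, 10 of ethanol and 10 of water mice. Daglb climbs with the microglia list in both groups, and the Naaa relations lean on the libraries at the ends of the lists.

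Among the other hydrolases, Mgll went with the oligodendrocyte list in isolated cells of ethanol mice (r = 0.805, n = 10, permutation p = 0.00092, FDR 0.0442; rho 0.842, permutation p = 0.00387) and kept r = 0.806 without the 2 farthest libraries. In isolated cells of water mice r was 0.639 (n = 10, permutation p = 0.0423, FDR 0.193). With the astrocyte list Mgll had r = 0.755 in isolated cells of ethanol mice (n = 10, permutation p = 0.0116, FDR 0.0796; rho 0.467, permutation p = 0.178). In those of water mice it had r = 0.789 (n = 10, permutation p = 0.00879, FDR 0.0747; rho 0.721, permutation p = 0.0235), so Mgll was not particular to the oligodendrocyte list. The genes most like Mgll in isolated libraries were Cxcl14 (r = 0.911), Btbd17 (r = 0.906) and the astrocyte marker Glul (r = 0.89), which encodes glutamine synthetase. Abhd12 had r = -0.84 with the astrocyte list in isolated cells of water mice (n = 10, permutation p = 0.00265, FDR 0.0477; rho -0.733, permutation p = 0.021), and -0.467 without 2 libraries. In that group Abhd12 (r = -0.784) and the astrocyte list (r = 0.688) also went with log2 library total, and the part of depth in the relation was not tested. With the microglia list Abhd12 had r = 0.758 in ethanol mice (n = 10, permutation p = 0.0101, FDR 0.0747) and 0.803 in water mice (n = 10, permutation p = 0.00547, FDR 0.0656), or 0.707 and 0.387 without 2 libraries, so the value in water mice rests on those libraries. The genes most like Abhd12 in isolated libraries were the microglial receptor gene Trem2 (r = 0.856), Spint1 (r = 0.852) and Sparc (r = 0.849). With the neuron list Abhd12 had r = 0.684 in homogenates of ethanol mice (n = 12, permutation p = 0.0104, FDR 0.0747). In those of water mice r was 0.733 (n = 12, permutation p = 0.00545, FDR 0.0656). Without 2 libraries these were 0.786 and 0.764. In isolated cells r with the neuron list was -0.129 and 0.636. With the astrocyte list r in homogenates was 0.612 and 0.206, opposite in sign to isolated cells. In homogenates of ethanol mice Abhd6 went with the astrocyte list (r = 0.82, n = 12, permutation p = 0.00158, FDR 0.0455; rho 0.846, permutation p = 0.00094) and against the oligodendrocyte list (r = -0.80, n = 12, permutation p = 0.00082, FDR 0.0442; rho -0.881, permutation p = 0.00041). In homogenates of water mice the same relations stood at r = 0.167 (n = 12, permutation p = 0.603) and r = -0.117 (n = 12, permutation p = 0.775).

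No relation of Cnr1 or Faah with the neuron list passed the FDR. For Cnr1 r was 0.434 in isolated cells of ethanol mice (n = 10, permutation p = 0.208) and 0.391 in those of water mice (n = 10, permutation p = 0.265), on means of 27.4 and 31.4 counts per library. In homogenates r was -0.469 in ethanol mice (n = 12, permutation p = 0.126) and 0.347 in water mice (n = 12, permutation p = 0.271) (-0.117 without mouse 68). Over the isolated libraries the genes most like Cnr1 were Ttc3 (r = 0.826), Pclo (r = 0.808), the gene of the presynaptic protein piccolo, and Lmtk2 (r = 0.789). In the same isolated libraries those most like Faah were Fntb (r = 0.773), Tmem38a (r = 0.742) and Golga5 (r = 0.724). Those most like Dagla were Kcnq1ot1 (r = 0.762), Acaca (r = 0.761) and Fbxl17 (r = 0.756), and those most like Abhd6 were Sirt3 (r = 0.757), Cml1 (r = 0.753) and Maoa (r = 0.753). Napepld had too few counts in isolated cells for such a match.

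The neighbouring pathway was followed in 50 other genes in 7 lists, which were tested between the groups. These lists too were chosen with earlier results of these data known, so their calls are descriptions and no independent support. In isolated cells against homogenate, 22 of the 43 tested rose and 16 fell in ethanol mice, and 19 of 39 rose and 16 fell in water mice, at rates of calls over all genes given above. With ethanol 0 of the 36 tested in isolated cells and 0 of the 39 tested in homogenate passed an FDR of 0.05 in edgeR, with 3 (Plcb1, Plce1 and Cnrip1) and 1 (Pla2g16) at an unadjusted p under 0.05. The ethanol effect differed between the fractions for 0 of 43, with 4 at an unadjusted p under 0.05, and DESeq2 called 0 in all of these.

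Among other receptors of these lipids, the second cannabinoid receptor gene Cnr2, known from immune cells, rose in isolated cells of ethanol mice by 3.72 ± 0.31 on the log2 scale. It averaged 5.99 ± 1.56 CPM in isolated cells and 0.441 ± 0.345 CPM in homogenates of ethanol mice, and it was too low for the test in water mice, at 5.74 ± 2.90 and 0.612 ± 0.511 CPM. The nuclear receptor genes Ppard (1.20 ± 0.08 in ethanol and 1.07 ± 0.10 in water mice) and Ppara (0.51 ± 0.14 and 0.56 ± 0.21), the target of palmitoylethanolamide, also rose, and Pparg fell in ethanol mice (-2.67 ± 0.41). Pparg averaged 0.764 CPM in isolated cells and 4.92 CPM in homogenates of ethanol mice. In water mice it was too low for the test, at 0.641 and 5.13 CPM. Gpr119 was at 0 counts in every library, and Gpr55, Gpr18 and Trpv1 were too low for a test.

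The alternative routes to N-acylethanolamines split between the fractions. The calcium-dependent acyltransferase gene Pla2g4e, whose product makes the precursor of anandamide, fell in isolated cells by 5.51 ± 0.39 on the log2 scale in ethanol mice and by 4.17 ± 0.38 in water mice, and Hrasls fell by 3.98 ± 0.22 and 4.06 ± 0.36. Pla2g4e averaged only 0.222 and 0.487 CPM in isolated cells, with 6 and 5 of 10 libraries at 0. Hrasls averaged 1.71 and 1.52 CPM there, so the sizes of these falls are uncertain. The lipase gene Abhd4 (1.02 ± 0.09 and 1.10 ± 0.11), the phospholipase gene Pla2g16 (2.18 ± 0.09 and 1.95 ± 0.14) and Inpp5d, which encodes the phosphatase SHIP1 of blood and microglial cells (3.69 ± 0.12 and 3.86 ± 0.12), rose. In all 5 of 9 tested rose and 4 fell in ethanol mice, and 3 of 7 rose and 4 fell in water mice. Inpp5d stood at 344 ± 85.1 CPM in isolated cells and 27.0 ± 3.28 CPM in homogenates of ethanol mice.

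Upstream of the diacylglycerol lipases, 5 of the 7 phospholipase C genes rose and 2 fell in isolated cells of ethanol mice, and 4 rose and 2 fell in water mice. Plcg2 (3.71 ± 0.15 and 3.75 ± 0.19) and Plcb2 (3.20 ± 0.15 and 3.24 ± 0.16), both known from immune cells, rose most, and Plcb3 rose by 1.48 ± 0.09 and 1.57 ± 0.11. Plcb1, the isoform of cortical neurons, fell (-2.66 ± 0.13 and -2.32 ± 0.13), as did Plcb4 (-1.43 ± 0.17 and -1.43 ± 0.25). Of the oxygenases that act on endocannabinoids, Ptgs1 (2.66 ± 0.11 and 2.79 ± 0.12) and Alox5 (3.56 ± 0.21 and 3.90 ± 0.30) rose and Ptgs2, the inducible cyclooxygenase gene of excitatory neurons, fell (-1.24 ± 0.25 and -1.13 ± 0.27), while Alox12 and Alox15 were too low for a test.

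Of the carrier genes, Fabp3 fell (-3.48 ± 0.31 in ethanol and -3.45 ± 0.30 in water mice), while Fabp5 (0.94 ± 0.16 and 1.03 ± 0.19) and Fabp7, a fatty acid binding protein gene of astrocytes and precursor cells (1.72 ± 0.41 and 0.84 ± 0.28), rose, and Scp2 did not pass. In isolated cells Fabp7 ran from 14.5 to 233 CPM in ethanol mice, with an SD (71.8) above the mean (58.7). It ran from 15.7 to 99.2 CPM in those of water mice, so the gap between the 2 rises is uncertain. Fabp3 averaged only 0.880 and 0.895 CPM in isolated cells, with 3 and 4 of 10 libraries at 0. The 3 genes whose products bind or regulate CB1 all fell in both treatments: Cnrip1 (-2.12 ± 0.12 and -1.63 ± 0.12), Gprasp1 (-2.45 ± 0.10 and -2.36 ± 0.08) and Sgip1 (-2.02 ± 0.08 and -2.08 ± 0.12), the same direction as Cnr1. Counts of Plcb1, Plcb3, Ptgs1, Fabp3, Cnrip1 and Sgip1 are uncertain for the reason given for Daglb.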

How the data were processed

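Per the labels' protocols, a directional kit with 15 PCR cycles was used for all libraries, of isolated cells and of homogenates, and they were read as 150 bp pairs. The authors deposited raw read counts per gene symbol, 24421 genes and 5 tally lines per library. The tools in the submitters' processing notes are HTSeq 0.5.3p9, Bowtie2 2.2.5, cutadapt 1.8, bcl2fastq 2.17, Picard 1.141 and DESeq2, with build mm10. Their roles, the annotation and the strand setting were not given in the sources used here.

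Groups were taken from the sample titles. The tally lines name no gene and were set aside. Reads not aligned were 37.4% to 90.3% of isolated libraries and 18.0% to 55.2% of homogenates, and reads outside genes 4.05% to 20.6% and 18.8% to 36.2%. A floor of 3 counts was 0.923 to 5.95 CPM in single isolated libraries and 0.329 to 0.817 CPM in homogenates, for counting error only, since PCR copies are not independent molecules.

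Each comparison was fitted on its own groups with edgeR 4.0.16 (R 4.3.3): TMM scaling, filterByExpr by group, robust glmQLFit and glmQLFTest, Benjamini-Hochberg FDR under 0.05 over all genes tested. The difference of ethanol effects came from 1 model of all groups. The procedure was tested on simulated counts. Log2 CPM used a prior count of 2, and exon lengths and positions were taken from GENCODE M21 by symbol. Marker relations used permutation tests written with NumPy 2.4.6, with ranks and FDR values from SciPy 1.17.1. Alternatives were DESeq2 1.42.0 (test, size factors), upper-quartile scaling, no filter, leaving out single or shallow libraries, thinning, and mouse as a block.

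The 9 members and all lists were chosen with earlier results of these data known. The members therefore carry values and errors but no p between groups, and their FDR calls and intervals are descriptions only. All 9 members are described. Up to 4 called genes per other list and direction, those with the lowest p, are named, with all of any list of 5 or fewer, as are the 3 genes with the highest r to each member averaging at least 20 counts, except 1 that is not reported here.

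The 2 fractions of a mouse come from 1 suspension, per the labels, so the mouse numbers pair the libraries. Deviations from group means correlated with a median of 0.0507 (-0.0429 to 0.165) in the 20 same-mouse pairs and -0.00465 in the 220 other pairs.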

Additional observations from a re-analysis of the deposited data

Results flagged for a closer look

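In isolated cells of water mice, 1 library of 10 lay far above the rest for each of a pair of genes. Naaa stood at 149 CPM in the library of mouse 73, where the next highest stood at 100 CPM and the others at 52.4 to 100 CPM, and without it the log2 fold change of ethanol over water was -0.32 ± 0.15. Faah stood at 38.4 CPM in the library of mouse 80, where the next highest stood at 21 CPM and the others at 7.45 to 21 CPM, and without it that value was -0.30 ± 0.19. The library of mouse 80 held 20 Faah counts and had the lowest total, 504492 counts. It also had the highest neuron list level of its group (6.02). That of mouse 73 had the highest astrocyte (9.93) and the lowest microglia list level (8.18) of the group. The part of depth and of these lists was not tested. Among the 18 gene and group sets of 10 libraries examined, 2 were marked in this way, and chance alone marks about 1 in 20.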

How the results depend on the processing

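All 683 alternative values of the 9 genes differed from the values above by less than the spread between mice, and 14 of them had the opposite sign, all for Abhd12, Naaa or Daglb in an ethanol comparison. Counts over all genes moved more. In isolated cells, ethanol against water gave 1 higher gene with no expression filter, 6 higher and 1 lower with DESeq2, and 0 to 14 higher and 0 to 1 lower over 20 refits without 1 library each, with 10 without ethanol mouse 75, 14 without ethanol mouse 77, 1 higher without water mouse 82 and 1 lower without ethanol mouse 66. The difference of the ethanol effects gave 1 higher and 1 lower gene with DESeq2. Thinned to the smallest total, the water mice gave 3339 lower genes in isolated cells among 9020 tested, a setting that tests fewer genes. Of the 8 marker relations, 2 passed with plain library totals, for Mgll with oligodendrocytes in ethanol and Daglb with microglia in water mice. Without libraries under 1000000 counts, where isolated cells of water mice held too few libraries to be tested, 4 passed. Daglb with microglia in isolated cells of ethanol mice passed in neither setting, with a permutation FDR of 0.0565 with plain totals and 0.051 without those libraries. As no isolated library of ethanol mice was under 1000000 counts, its r (0.841) was unchanged in the latter setting. There the FDR moved only because it was taken over 108 relations. Where the cause of a change is not named, it was not tested.

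With the mouse as a block, 5211 genes were higher and 5510 lower in isolated cells of ethanol mice, 4737 and 5102 in those of water mice, and 0 and 0 in the difference of the ethanol effects. In ethanol mice Abhd12 was not past the threshold under the block (0.18), nor without it in the 10 mice with both fractions (0.20). With all ethanol mice its call was also lost under the DESeq2 test, DESeq2 size factors and no expression filter, and the cause was not tested. The block changed no call of the other 8 genes. Not divided by length, the Naaa share was 84.4% and 84.6% in isolated cells of ethanol and water mice, against 24.1% and 26.1% in homogenates. The Daglb share was 65.6% and 64.6%, against 20.3% and 21.4%.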

Other observations

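The other hydrolases of the ABHD family, relatives of Abhd6 and Abhd12, were spread over both fractions. Of the 13 tested, 5 rose and 4 fell in isolated cells of ethanol mice, and 6 rose and 5 fell in those of water mice. Abhd8 fell by 3.04 ± 0.08 on the log2 scale in ethanol mice and by 2.66 ± 0.14 in water mice, to 40.6 ± 6.06 CPM in isolated cells, against 343 ± 34.3 CPM in homogenates of ethanol mice. Abhd17a, whose product removes palmitate from synaptic proteins, stood at -1.39 ± 0.09 and -1.27 ± 0.14. Abhd5, the activator gene of adipose triglyceride lipase, rose by 1.70 ± 0.07 and 1.65 ± 0.10, and Abhd17b rose by 1.08 ± 0.07 and 1.06 ± 0.10. Counts of Abhd5 are uncertain, since its exons overlap a gene on the opposite strand.

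In homogenate, the genes most like the members over 24 libraries, among 12749 genes, were others than in isolated cells. Without the water homogenate of mouse 68 these r values were 0.544 to 0.711 for Cnr1, 0.654 to 0.69 for Daglb and 0.732 or higher for the other genes named, a comparison added after the values were seen. For Naaa they were Tmem47 (r = 0.864), Id4 (r = 0.858) and Ppap2b (r = 0.85). For Faah they were Strn4 (r = 0.931), Sorbs2 (r = 0.916) and Mical2 (r = 0.907), and for Cnr1 they were Unc5a (r = 0.891), Trpm2 (r = 0.861) and Caln1 (r = 0.841). For Dagla they were Clstn1 (r = 0.918), Dab2ip (r = 0.913) and Itpr1 (r = 0.886). For Daglb they were Tesk1 (r = 0.81), Pld3 (r = 0.808) and R3hdm4 (r = 0.803), with no gene of the microglia list among them. For Napepld they were Tshz3 (r = 0.897), Nwd2 (r = 0.857) and Bsn (r = 0.849). For Mgll they included Myom3 (r = 0.906) and Atxn7l3 (r = 0.89). For Abhd6 they were Cadm3 (r = 0.786), Cyp46a1 (r = 0.756) and Pcdhgc5 (r = 0.742), and for Abhd12 they were Cabp1 (r = 0.906), Epdr1 (r = 0.89) and Cntnap1 (r = 0.888).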
